A study of Homo sapiens with 6 samples.

Results

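This report describes 76 genes of chaperones, heat shock factors and immunophilins in SW480 cells, a line established from a human colorectal adenocarcinoma. They are the genes of the deposited table whose symbol starts with HSP, HSF, DNAJ or FKBP, or is CCT or BAG followed by a digit, and they make up 76 of the 8529 genes listed. Wild-type cells of this 1 line were grown for 72 h on hydrogel-coated plates of 2 kPa (soft) or 25 kPa (stiff), and RNA from 3 wells at each stiffness was sequenced as separate libraries. The study asked how the stiffness of the matrix alters gene expression in colorectal cancer cells. Expression is given in FPKM (fragments per kilobase of transcript, scaled to the mapped fragments of the library), and each mean is followed by ± the standard deviation over the 3 libraries of a group (n = 3). The methods give triplicate wells, and speak of independent experiments for quantitative data in general but not for the sequenced wells, so the p-values measure the spread between these libraries, which may be technical. HSF1, HSF5, CCT4, CCT7 and DNAJC3 were among 40 symbols of these families that were looked for and are not analysed here.

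Chaperones bind proteins that are not yet folded or have lost their fold. HSP70 proteins hold short exposed stretches in a cycle driven by ATP, which DNAJ proteins (HSP40) start and the HSP110 and BAG proteins and HSPBP1 carry on by exchanging the nucleotide. HSP90 acts later on kinases, receptors and other clients, the CCT ring folds actin and tubulin in the cytosol, and HSPD1 with its lid HSPE1 folds proteins in the mitochondrion. HSPA5 and HSP90B1 are the HSP70 and HSP90 of the endoplasmic reticulum (ER). FKBP immunophilins are prolyl isomerases, several of which bind the drugs FK506 and rapamycin. Heat shock factors are transcription factors that bind repeats of the sequence nGAAn, called heat shock elements, in front of chaperone genes.

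Within a group, the log2 values of all genes correlated between libraries with r of 0.974 to 0.988, as a description across genes. The FPKM of all genes summed to between 201030 and 235728 in the libraries at 2 kPa and between 231714 and 263028 at 25 kPa, so the stiff libraries carried more FPKM on average. The 76 genes together made up 1.27% to 1.41% of these sums at 2 kPa and 1.20% to 1.46% at 25 kPa. The label was checked against cell type markers. Of 10 epithelial markers, 7 were in the table with summed levels of 4481 to 4811 FPKM at 2 kPa and 3691 to 4862 FPKM at 25 kPa, led by KRT18, KRT19 and EPCAM, whereas the intestinal factors CDX1 and CDX2 stayed under 1 FPKM in each library. Of 7 fibroblast markers, LUM and PDGFRB were listed, at no more than 0.55 FPKM, and none of 4 leukocyte markers was in the table.

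Mean levels of the 76 genes ran from 0.125 to 1051 FPKM. HSPA8, the constitutive HSP70 of the cytosol, averaged 1051 FPKM over the 6 libraries and alone made up 33.4% of the summed FPKM of the 76 genes. The genes CCT3, HSP90B1, HSPA5, CCT2, CCT5, CCT6A, CCT8, HSPE1 and HSPA9 also averaged at least 100 FPKM, which put 10 genes in this range. Another 22 lay between 10 and 100 FPKM, 32 between 1 and 10, and 12 under 1 (15.8%, against 31.9% of all genes). Some of the lowest entries were chaperones known to be abundant in most cells: HSP90AB1 averaged 0.785 FPKM, HSP90AA1 0.715 FPKM and HSPD1 1.93 FPKM. GAPDH, a glycolytic enzyme of every cell, was listed at 0.32 to 3.35 FPKM in the same table, and the transcripts behind each value are not named there. The order of levels between genes is therefore that of the deposited values.

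**Figure D1:**
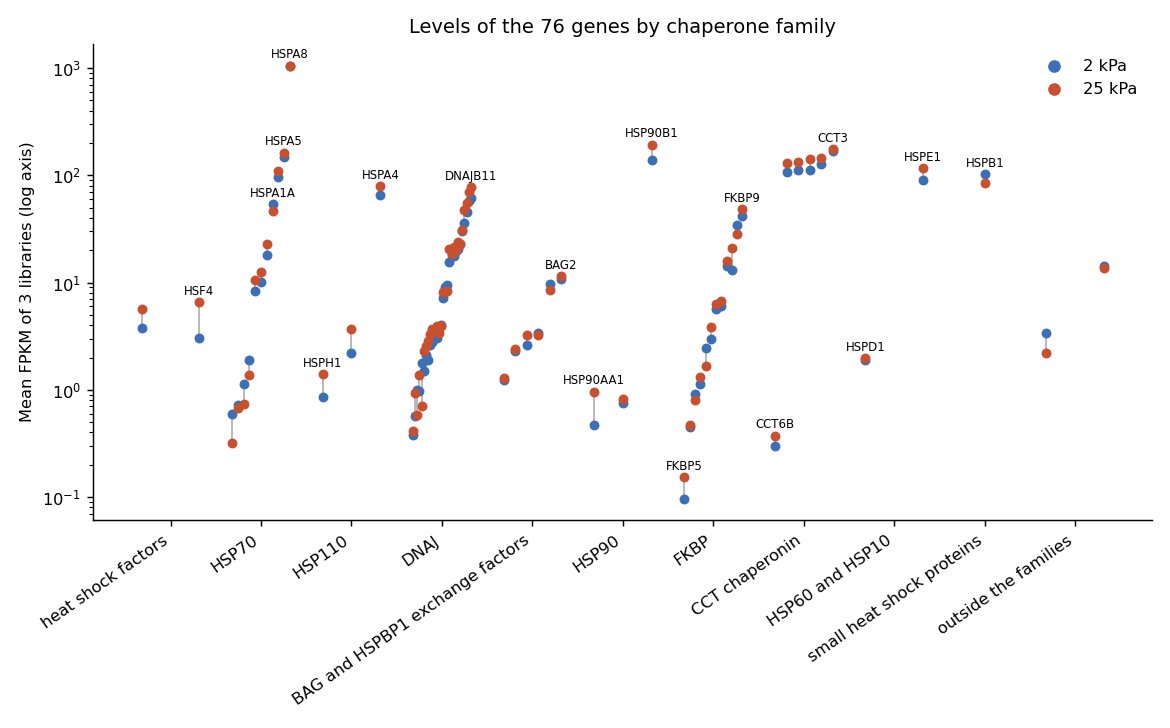
Mean FPKM of 3 libraries for each of the 76 genes, on a log axis, at 2 kPa (blue) and 25 kPa (orange), with a line joining both values of a gene and genes ordered by level within each family. HSPA8 stands highest at 1051 FPKM over the 6 libraries, and HSP90B1 lies far above HSP90AA1 and HSP90AB1.

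The comparison of 25 kPa with 2 kPa was made by limma on log2(FPKM + 1) over all 8529 genes, and log2 fold changes below are on this scale, which understates the change of low genes. No gene of the 76 passed an adjusted p of 0.05 (limma with Benjamini-Hochberg adjustment), and the smallest value was 0.12, for HSF4. Among all genes of the series, 10 passed, or 0.117%. At an unadjusted p under 0.05, 12 of the 76 genes were higher at 25 kPa, which is 15.8% against 6.96% of all genes, and 2 were lower, 2.63% against 3.19% of all genes. The libraries at 25 kPa lay entirely above those at 2 kPa for 15 genes (19.7%, against 11.2% of all genes) and entirely below them for 2 genes (2.63%, against 4.78%). The mean was higher at 25 kPa for 57 genes (75.0%, against 59.6% of all genes) and lower for 19. The median of the log2 fold changes was 0.14, against 0.05 over all genes. For 34 of the 76 genes the difference was smaller than its own standard error. In RNA from whole wells, more cells that express a gene and more of its RNA per cell cannot be told apart.

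These counts moved with the scaling of the libraries. With FPKM rescaled to equal library sums, 4 of the 76 genes were higher (5.26%, against 3.48% of all genes) and 2 were lower (2.63%, against 4.67%) at an unadjusted p under 0.05. In this setting 6 lay above without overlap (7.89%, against 5.33%). Median centring gave 5 higher (6.58%, against 4.57% of all genes) and 3 lower (3.95%, against 4.58%). Quantile normalisation gave 6 higher (7.89%, against 5.52%) and 4 lower (5.26%, against 5.29%). Over all genes the split changed from 594 higher and 272 lower as reported to 297 higher and 398 lower with equal sums. HSF4, FKBP3 and DNAJC9 kept an unadjusted p under 0.05 in the same direction in all 14 other settings tried. Among those settings DNAJB1 did so in 13 and FKBP10 in 12. DNAJB11, DNAJA2, DNAJA1, CCT5, HSPA13, HSP90B1, HSF2 and HSP90AA1 had an unadjusted p above 0.05 with equal library sums, each with the same direction.

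**Figure D2:**
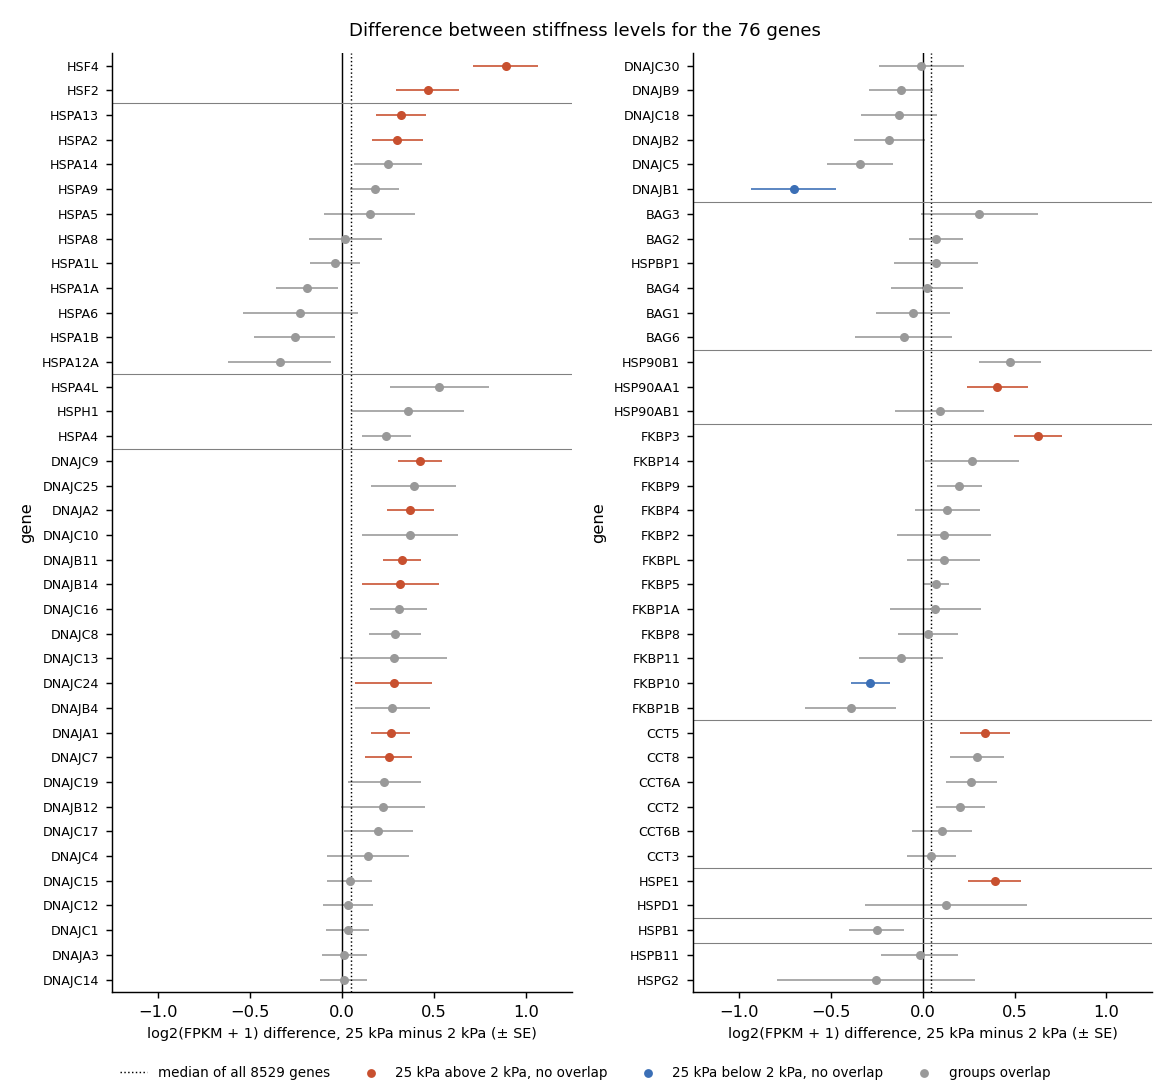
Difference in log2(FPKM + 1) between 25 kPa and 2 kPa for each of the 76 genes, in the order of their families, with the standard error from limma as bars and the median of all genes (0.05) as a dotted line. Genes drawn in orange (15) or blue (2) have no overlap between libraries, and the largest differences are 0.89 for HSF4 and −0.70 for DNAJB1.

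Both heat shock factors of the table had a higher mean on the stiff gel (100%, against 59.6% of all genes). Both lay above without overlap (100%, against 11.2% of all genes). They were among the genes chosen with earlier results known. HSF4, the factor best known from the lens of the eye, was listed at 3.02, 3.12 and 3.07 FPKM on the soft gel and at 6.32, 6.38 and 6.95 FPKM on the stiff gel. Every stiff library thus lay above every soft one, with a ratio of means of 2.13. The difference was 0.89 ± 0.18 (SE) on the log2 scale (limma adjusted p = 0.12, between 0.0638 and 0.509 in the other settings). In GENCODE 29, 31.4% of the exonic bases of HSF4 also belong to AC074143.1 on the same strand, so reads of the pair could have been shared. HSF2, which is active in the embryo, the germ line and under proteasome stress, had 3.76, 3.95 and 3.66 FPKM at 2 kPa against 5.67, 5.69 and 5.49 FPKM at 25 kPa. These groups did not overlap either, but the log2 fold change of 0.47 ± 0.17 (SE) was smaller and its limma adjusted p was 0.404. The unadjusted p of HSF2 was under 0.05 (limma) in 8 of the 14 other settings.

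A list of textbook targets of heat shock factors, set with earlier results known and not complete, differed in both directions. Of its 7 genes (HSPA1A, HSPA1B, HSP90AA1, HSPH1, DNAJB1, HSPB1 and BAG3), 3 had a higher mean at 25 kPa (42.9%, against 59.6% of all genes) and 4 a lower one. DNAJA1, HSPA8 and HSPA6, which held a full heat shock element in the search below, were not in the list. Their log2 fold changes were 0.27, 0.02 and −0.23. On each side 1 had an unadjusted p under 0.05 (14.3% each, against 6.96% higher and 3.19% lower of all genes). The median log2 fold change was −0.19. HSP90AA1, the inducible HSP90 of the cytosol, was the higher one, at 0.467 ± 0.106 FPKM on the soft and 0.963 ± 0.373 FPKM on the stiff gel. DNAJB1, the HSP40 partner induced with HSPA1A, was the lower one, at 1.29, 2.32 and 1.68 FPKM at 2 kPa and 0.33, 1.07 and 0.72 FPKM at 25 kPa. Its log2 fold change was −0.70 ± 0.23 (SE), and the limma adjusted p lay between 0.287 and 0.765 over the other settings. Both genes were low in this table, at no more than 2.32 FPKM in any library. HSPA1B, HSPH1 and BAG3 were low as well, at 0.935, 1.13 and 2.92 FPKM over the 6 libraries. Whether the factors acted on these targets was not tested.

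The inducible HSP70 gene HSPA1A was listed at 46.8, 63.7 and 50.2 FPKM at 2 kPa and at 40.3, 57.5 and 43.1 FPKM at 25 kPa, so the groups overlapped (log2 fold change −0.19 ± 0.17). HSPB1, the small heat shock protein HSP27 that keeps unfolded proteins soluble, averaged 103 ± 17.5 FPKM on the soft and 85.6 ± 8.46 FPKM on the stiff gel (log2 fold change −0.25 ± 0.15). HSPA6, a strictly inducible HSP70, reached 1.47 FPKM in 2 kPa replicate 2 and 0.8 FPKM in 25 kPa replicate 2, and was between 0.06 and 0.18 FPKM in the others. In HSPA1A, HSPB1, HSPA6 and DNAJB1 the library numbered 2 held the highest value of its group at both stiffness levels. Other targets differed: HSPA1B and HSPH1 had their lowest stiff value in replicate 2, at 0.69 and 0.51 FPKM. HSP90AA1 had its highest soft value in replicate 1, at 0.58 FPKM, and in BAG3 the stiff replicates 2 and 3 were equal. Over all genes, deviations of the libraries numbered 2 correlated between stiffness levels with r of −0.267. HSPA1B averaged 1.13 ± 0.578 and 0.737 ± 0.0569 FPKM. The longest open reading frames of HSPA1A and HSPA1B are 99.8% identical, yet HSPA1A was listed 53.8-fold higher, so how the authors' counting divided the reads between these copies is uncertain.

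Heat shock elements were looked for in the RefSeq promoter windows of GRCh38.p14, from 250 bases before to 50 bases after each start, which exist for 65 of the 76 genes. A full element of 3 units, written TTCNNGAANNTTC or, on the other strand, GAANNTTCNNGAA, was found in 3 of these 65 windows (4.62%) against 133 of 27305 windows overall (0.487%). They belong to HSPA8, HSPA6 and DNAJA1, and in DNAJA1 the element lies after the start. The shorter form of 2 units, GAANNTTC, reads the same on both strands and is part of each full element. It was present in 8 of the 65 windows (12.3%, against 6.87%), namely those of BAG2, DNAJA1, HSPA1A, HSPA1B, HSPA1L, HSPA6, HSPA8 and HSPB1. The windows of HSPA1A and HSPA1L overlap on opposite strands, so a site there may count for both, and HSPA1B is a copy of HSPA1A. The 8 windows may thus hold fewer separate sites. Of 14 matched genes that lay above without overlap at 25 kPa, 1 (DNAJA1) held the full element. This is 7.14%, against 4.62% of the 65 windows and 0.487% of all windows. The search took exact matches within the window only, so elements with a mismatch or further away were not looked for. The windows of HSPA1A, HSPA1B, HSP90AA1, HSPH1, DNAJB1, HSPB1 and BAG3, the textbook targets above, held no full element in this search. The stretches below are shown because they carry the site that heat shock factors read. They are given 5′ to 3′ on the strand of the gene with the element in capitals.
HSPA8, chr11:123062331-123062386, minus strand, element from 230 bases before the start: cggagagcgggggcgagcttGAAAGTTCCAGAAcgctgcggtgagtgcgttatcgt
HSPA8, chr11:123062156-123062215, minus strand, element from 55 bases before the start: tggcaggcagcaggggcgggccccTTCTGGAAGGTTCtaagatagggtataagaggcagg
HSPA6, chr1:161524442-161524501, plus strand, element from 74 bases before the start: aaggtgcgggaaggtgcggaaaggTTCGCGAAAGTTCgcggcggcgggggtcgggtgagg
The elements of HSPA8 and HSPA6 stand in front of genes at opposite ends of the range of levels. HSPA8 was at 1169, 873 and 1103 FPKM on the soft gel and at 1103, 1026 and 1032 FPKM on the stiff gel, a log2 fold change of 0.02 ± 0.20 whose sign changed with the scaling.

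The remaining HSP70 genes were HSPA13, HSPA2, HSPA14, HSPA9, HSPA5, HSPA1L and HSPA12A. Among the 11 HSP70 genes, 6 had a higher mean at 25 kPa (54.5%, against 59.6% of all genes) and 5 a lower one. The family median of 0.02 was below that of all genes. HSPA13, an HSP70 of the microsomes, was the one with an unadjusted p under 0.05, at 16.6, 19.3 and 18.8 FPKM on the soft and 21.4, 21.2 and 26.9 FPKM on the stiff gel (limma adjusted p = 0.459). HSPA2, known from meiosis in the testis, also showed no overlap, with 8.33 ± 0.276 and 10.5 ± 0.714 FPKM (limma adjusted p = 0.504). HSPA9, the HSP70 of the mitochondrial matrix, averaged 96.4 ± 8.99 and 109.5 ± 14.1 FPKM with overlapping groups. HSPA12A, a distant relative, and HSPA1L, of the germ line, had lower means at 25 kPa and overlapping groups, and HSPA14, which acts at the ribosome, had a higher mean with overlap.

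The nucleotide exchange factors followed no common direction. All 3 HSP110 genes had higher means at 25 kPa (100%, against 59.6% of all genes), but each overlapped. HSPA4 averaged 66.1 ± 2.77 and 78.9 ± 12.0 FPKM, HSPA4L 2.19 ± 0.573 and 3.66 ± 1.15 FPKM, and HSPH1 0.853 ± 0.542 and 1.41 ± 0.78 FPKM. In each of these 3 genes, 25 kPa replicates 1 and 3 were above the soft libraries and replicate 2 was not. Without that replicate their log2 fold changes were 0.37 for HSPA4, 0.73 for HSPA4L and 0.67 for HSPH1, in place of 0.24, 0.53 and 0.36. The 5 BAG genes and HSPBP1 had log2 fold changes between −0.10 and 0.31, with 0 at an unadjusted p under 0.05 and 0 without overlap. BAG3, which links HSP70 to autophagy, was listed at 2.3, 4.27 and 1.26 FPKM on the soft and 2.67, 3.51 and 3.51 FPKM on the stiff gel, which shows that its soft libraries differ more among themselves than the groups do. BAG2, an inhibitor of the ligase CHIP, averaged 10.8 ± 1.03 and 11.5 ± 1.41 FPKM, and BAG6, which guards membrane proteins before their insertion, 9.61 ± 3.84 and 8.59 ± 1.87 FPKM.

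DNAJ proteins were the largest family, and 22 of its 28 genes had higher means at 25 kPa (78.6%, against 59.6% of all genes). At an unadjusted p under 0.05, 4 were higher (14.3%, against 6.96% of all genes) and 1, DNAJB1, was lower (3.57%, against 3.19%), and 7 lay above without overlap (25.0%, against 11.2%). The family median log2 fold change was 0.23. DNAJC9, a chaperone of histones H3 and H4, was at 40.4, 31.0 and 35.5 FPKM on the soft gel and at 47.8, 47.4 and 48.6 FPKM on the stiff gel. Its stiff libraries were nearly equal and all above the soft ones, and the difference was 0.42 ± 0.12 (SE) on the log2 scale (limma adjusted p = 0.262). In GENCODE 29, 949 exonic bases of DNAJC9 are shared with FAM149B1 on the opposite strand, which averaged 0.693 FPKM at 2 kPa and 0.56 FPKM at 25 kPa. DNAJA1 and DNAJA2 are the main HSP40 partners of HSPA8 in the cytosol. DNAJA2 had 14.03, 15.96 and 16.55 FPKM at 2 kPa against 22.3, 18.6 and 20.2 FPKM at 25 kPa, and DNAJA1 had 59.97, 55.02 and 59.45 FPKM against 68.5, 67.0 and 74.8 FPKM. Neither gene overlapped between groups, and their log2 fold changes were 0.37 ± 0.13 and 0.27 ± 0.10 (limma adjusted p = 0.356 and 0.429).

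DNAJB11, the HSP40 partner of HSPA5 in the ER, was listed at 59.1, 62.6 and 63.5 FPKM on the soft gel and at 74.5, 75.5 and 83.3 FPKM on the stiff gel. This is a ratio of means of 1.26 with a log2 fold change of 0.33 ± 0.10 and a limma adjusted p of 0.325. DNAJC7, which binds both HSP70 and HSP90, DNAJB14 of the ER membrane and DNAJC24, a factor of diphthamide synthesis, lay above without overlap as well, with unadjusted p above 0.05. The other 20 DNAJ genes overlapped. DNAJC8, a spliceosome protein, was the highest of these at 45.7 ± 8.09 and 55.6 ± 4.32 FPKM. DNAJC10, an ER reductase, and DNAJC16 again lay above the soft libraries in 25 kPa replicates 1 and 3 and not in replicate 2. DNAJC13 of endosomes and DNAJC5 of synaptic vesicles overlapped, with log2 fold changes of 0.28 and −0.34. The mitochondrial members DNAJA3, DNAJC15, DNAJC19, DNAJC4 and DNAJC30 had log2 fold changes between −0.01 and 0.23. DNAJB9, an ER partner of HSPA5 that is induced by the unfolded protein response, averaged 9.05 ± 1.77 and 8.16 ± 0.665 FPKM. The remaining genes DNAJB2, DNAJB4, DNAJB12, DNAJC1, DNAJC12, DNAJC14, DNAJC17, DNAJC18 and DNAJC25 ranged from −0.18 to 0.39.

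**Figure D3:**
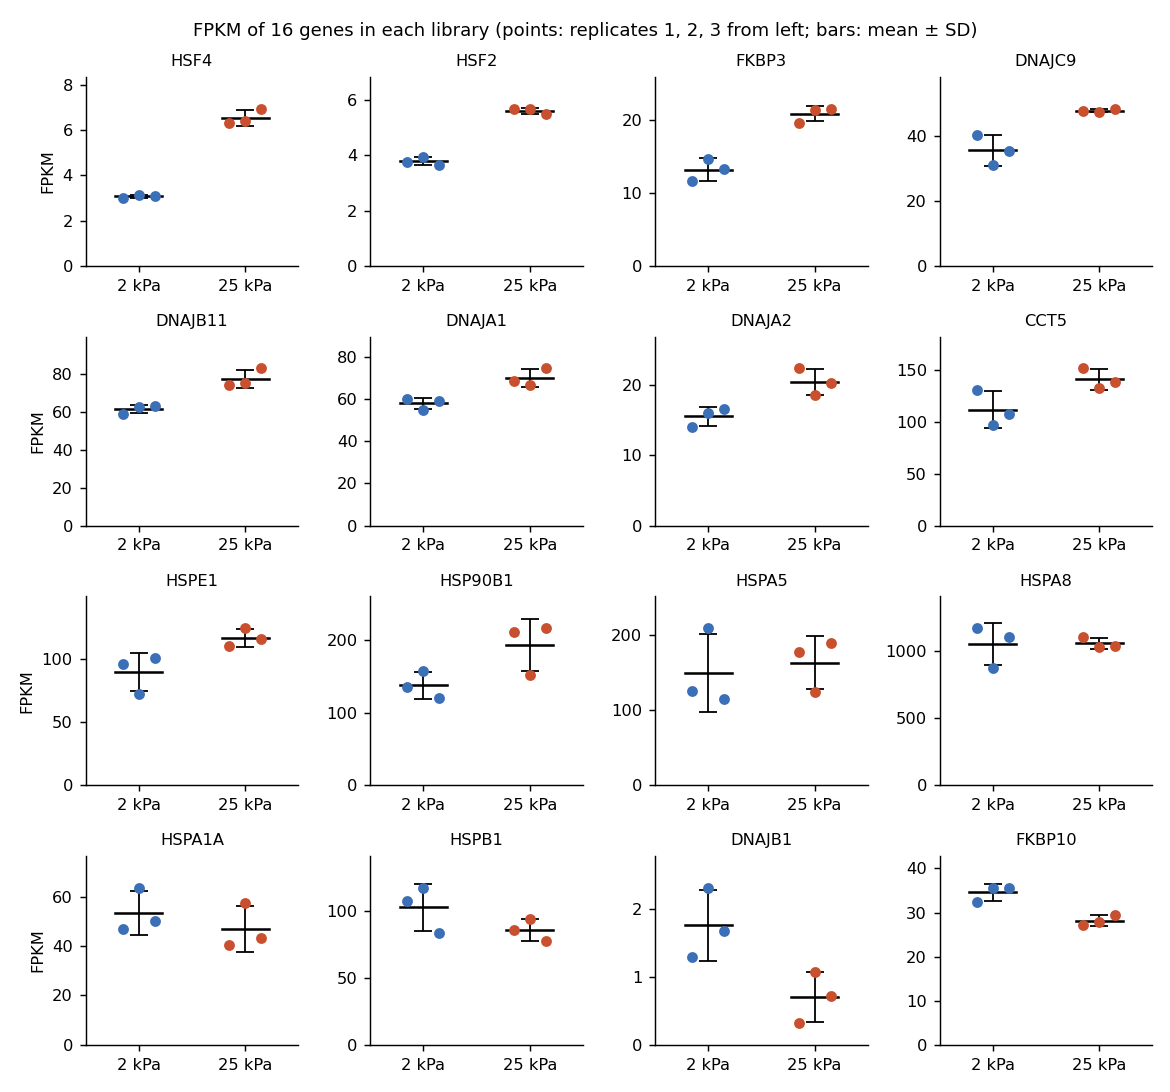
FPKM of 16 genes in each library, with points for replicates 1, 2 and 3 from left to right, a bar at the mean and whiskers of 1 SD, on axes that start at 0. HSF4 and FKBP3 show wide gaps between groups, HSP90B1 shows 25 kPa replicate 2 at 152 FPKM among the soft libraries, and HSPA8 shows its stiff libraries within the range of the soft ones.

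In the ER, HSP90B1 (GRP94), which folds integrins and Toll-like receptors, averaged 138 ± 18.5 FPKM on the soft and 193 ± 36.1 FPKM on the stiff gel. Its libraries were at 135, 157 and 121 FPKM and at 211, 152 and 217 FPKM, so replicate 2 of the stiff gel fell below the highest soft library, and the log2 fold change was 0.48 ± 0.17 (limma adjusted p = 0.393, between 0.223 and 0.782 over the other settings). HSPA5 (BiP), the master chaperone of the ER, was at 126, 209 and 114 FPKM on the soft gel and at 177, 123 and 189 FPKM on the stiff gel. Its stiff libraries lay within the range of the soft ones, with a log2 fold change of 0.15 ± 0.25. In both genes replicate 2 was the highest soft library and the lowest stiff one. Of 3 textbook targets of the unfolded protein response among the 76 genes (HSPA5, HSP90B1 and DNAJB9), 2 had a higher mean and 1 a lower mean at 25 kPa, and 1 had an unadjusted p under 0.05. Over all genes, 59.6% had a higher mean and 6.96% were higher at an unadjusted p under 0.05. HSP90AB1, the constitutive HSP90 of the cytosol, was 211-fold below HSP90B1 in this table, at 0.757 ± 0.612 and 0.813 ± 0.24 FPKM.

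The element that the unfolded protein response acts on, CCAAT and CCACG with 9 bases between them (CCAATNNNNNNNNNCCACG), was found on either strand in 22 of the 27305 windows (0.0806%). HSPA5 and HSP90B1 were the 2 genes among the 65 that held it (3.08%), both of them among the 14 matched genes of the ER (14.3%). Its first part, CCAAT alone, was present in 26 of the 65 windows (40.0%) and in 35.7% of all windows. The groups overlapped in both genes, with log2 fold changes of 0.15 for HSPA5 and 0.48 for HSP90B1. The stretches are shown because both genes carry this element, which is in capitals.
HSPA5, chr9:125241371-125241430, minus strand, element from 66 bases before the start: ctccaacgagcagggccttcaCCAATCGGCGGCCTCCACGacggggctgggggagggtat
HSP90B1, chr12:103930195-103930254, plus strand, element from 194 bases before the start: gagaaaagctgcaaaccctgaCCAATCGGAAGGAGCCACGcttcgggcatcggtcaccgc
HSP90B1, chr12:103930300-103930359, plus strand, element in the reverse direction from 89 bases before the start: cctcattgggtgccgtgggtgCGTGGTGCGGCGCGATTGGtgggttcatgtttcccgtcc
The 17 ER genes had a median log2 fold change of 0.20, with 3 higher (HSP90B1, DNAJB11 and HSPA13) and 1 lower (FKBP10) at an unadjusted p under 0.05. These are 17.6% and 5.88%, against 6.96% and 3.19% of all genes. In 10 of the 17, 25 kPa replicate 2 was the lowest stiff library.

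The subunits of the CCT ring are present in equal numbers in the complex, and the 5 ubiquitous CCT subunits listed by this name lay within 1.45-fold of each other over the 6 libraries. All 6 CCT genes had higher means at 25 kPa (100%, against 59.6% of all genes), and the family median was 0.24 on the log2 scale. CCT5 was at 131, 97.1 and 108 FPKM on the soft gel and at 152, 133 and 138 FPKM on the stiff gel, the one gene of the family without overlap and with an unadjusted p under 0.05 (log2 fold change 0.34 ± 0.14, limma adjusted p = 0.449). An antisense gene, AC012640.4, covers 30.1% of its exonic bases. CCT8 and CCT6A averaged 107 ± 17.3 and 111 ± 11.6 FPKM on the soft gel and 131 ± 12.8 and 134 ± 17.9 FPKM on the stiff gel, with replicate 2 of the stiff gel inside the range of the soft libraries. CCT2 averaged 127 ± 18.1 and 146 ± 6.47 FPKM, and CCT3 170 ± 21.0 and 176 ± 12.7 FPKM, a difference whose sign changed with the scaling. TCP1, the subunit known as CCT1, is outside the 76 genes by its name and averaged 84.0 ± 12.5 and 102 ± 8.52 FPKM with overlapping groups. CCT6B, the testis form of CCT6A, averaged 0.335 FPKM. In CCT2, CCT3, CCT5 and CCT8, 2 kPa replicate 2 was the lowest of the soft libraries.

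HSPE1 and HSPD1, the lid and the barrel of the mitochondrial chaperonin, lie head to head on chromosome 2 with 104 bases between their starts in RefSeq. HSPE1 was at 95.8, 72.4 and 101 FPKM on the soft gel and at 110.2, 125 and 116 FPKM on the stiff gel, without overlap (log2 fold change 0.39 ± 0.14, limma adjusted p = 0.403, between 0.337 and 0.72 over the other settings). HSPD1 was at 2.76, 2.62 and 0.29 FPKM and at 1.3, 1.34 and 3.26 FPKM, with overlapping groups and a log2 fold change of 0.13 ± 0.44. Although they share this stretch, HSPE1 was listed 53.5-fold above HSPD1. The annotation gives the pair 281 shared exonic bases on opposite strands, 14.2% of HSPE1. The whole stretch between the starts is printed, on the strand of HSPE1, since both genes are read outward from it, and it holds neither of the elements above.
HSPE1 and HSPD1, chr2:197500275-197500378, plus strand: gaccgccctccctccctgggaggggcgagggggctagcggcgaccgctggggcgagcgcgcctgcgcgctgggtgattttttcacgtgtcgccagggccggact
Of the 9 mitochondrial genes, 8 had higher means at 25 kPa (88.9%, against 59.6% of all genes) and the median difference was 0.13. HSPE1 was the one with an unadjusted p under 0.05 (11.1%, against 6.96% of all genes).

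Among the immunophilins, FKBP3 stood apart. FKBP3 (FKBP25), a nuclear FKBP that binds nucleic acids, was at 11.7, 14.7 and 13.2 FPKM on the soft gel and at 19.7, 21.4 and 21.6 FPKM on the stiff gel. The ratio of means was 1.58 and the log2 fold change 0.63 ± 0.13, which ranked 58 of 8529 genes by p (limma adjusted p = 0.143, between 0.116 and 0.515 in the other settings). On the opposite strand PRPF39, a splicing factor gene, shares 28.9% of the exonic bases of FKBP3, and it averaged 2.50 ± 0.41 FPKM at 2 kPa and 4.11 ± 0.446 FPKM at 25 kPa (log2 fold change 0.55, with an unadjusted p under 0.05). Whether the counting used strand is not given in the sources used here, and the part of shared reads in either difference was not tested. FKBP10 (FKBP65), an ER isomerase that acts on collagen and tropoelastin, went the other way, with 32.4, 35.6 and 35.6 FPKM on the soft gel and 27.1, 28.0 and 29.5 FPKM on the stiff gel. Its groups did not overlap, and the log2 fold change was −0.28 ± 0.11 (limma adjusted p = 0.403).

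The other 10 FKBP genes overlapped and had unadjusted p above 0.05, with log2 fold changes from −0.39 (FKBP1B, a regulator of the ryanodine receptor) to 0.27 (FKBP14, an ER isomerase of collagen folding). FKBP9, the highest of the family and also of the ER, averaged 42.2 ± 6.1 and 48.3 ± 1.74 FPKM. FKBP4 (FKBP52), an HSP90 partner of steroid receptors, averaged 14.3 ± 2.5 and 15.8 ± 3.06 FPKM. Its relative FKBP5 (FKBP51) was listed at 0.05 to 0.21 FPKM, the lowest level of the 76 genes. FKBP1A (FKBP12), the main target of FK506 and rapamycin, averaged 1.14 ± 0.2 and 1.30 ± 0.671 FPKM. FKBP2, FKBP11, FKBPL and FKBP8 lay between −0.12 and 0.12 on the log2 scale. By family, 1 FKBP gene of 12 was higher and 1 lower at an unadjusted p under 0.05 (8.33% each, against 6.96% and 3.19% of all genes), and the median log2 fold change was 0.09.

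Symbols alone brought in 2 genes that are not chaperones. HSPG2 encodes perlecan, a heparan sulphate proteoglycan of basement membranes, and was listed at 2.35, 6.99 and 0.73 FPKM on the soft gel and at 3.9, 1.06 and 1.72 FPKM on the stiff gel. HSPB11 encodes IFT25, a part of the transport machinery of cilia, and averaged 14.3 ± 4.0 and 13.8 ± 1.46 FPKM. The groups overlapped in both genes.

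The better expressed genes held most of the higher calls. Of the 32 genes with a mean of at least 10 FPKM, 9 were higher at 25 kPa at an unadjusted p under 0.05 (28.1%, against 13.0% of the 2229 genes of the table at this level). A further 1 was lower (3.12%, against 4.44%). Their median log2 fold change was 0.22, against 0.10 for all genes at this level. The 44 genes of cytosol and nucleus had 6 higher (13.6%, against 6.96% of all genes) and 1 lower (2.27%, against 3.19%) at an unadjusted p under 0.05, with a median of 0.11.

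The counts also moved with single libraries, 25 kPa replicate 2 among them. In 12 of the 76 genes (15.8%, against 10.0% of all genes) 25 kPa replicates 1 and 3 lay above every soft library while replicate 2 did not. They were CCT8, CCT6A, HSPA4, HSPA4L, HSPH1, HSPA14, HSP90B1, DNAJC10, DNAJC16, FKBP14, FKBP1A and FKBP5, from 6 of the families. Replicate 2 also had the largest FPKM sum of all libraries, 263028. It was the lowest stiff library for 44.7% of the 76 genes and for 43.7% of all genes. Without it, 17 of the 76 genes were higher at an unadjusted p under 0.05 (22.4%, against 8.31% of all genes), and 27 lay above without overlap (35.5%, against 21.2%). Without 25 kPa replicate 3 the count fell to 4 (5.26%, against 5.02%), and without 25 kPa replicate 1 to 6 (7.89%, against 5.02%).

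**Figure D4:**
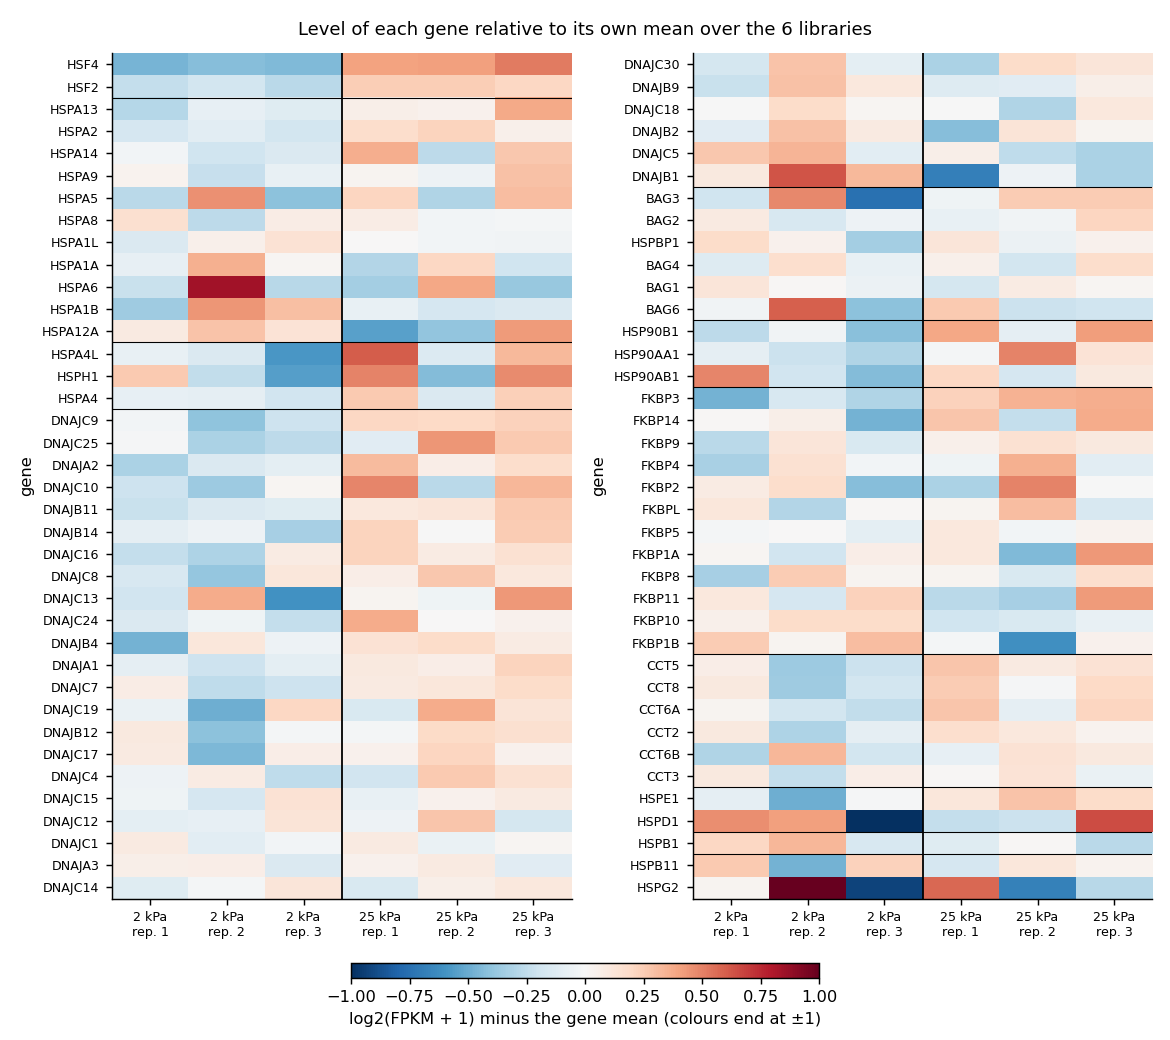
Level of each of the 76 genes in each library on the log2(FPKM + 1) scale, relative to the mean of that gene over the 6 libraries, with colours ending at ±1, horizontal lines between families and a vertical line between the stiffness levels. HSF4, HSF2 and FKBP3 separate by stiffness in all 6 libraries, whereas HSPH1, HSPA4L and HSP90B1 show 25 kPa replicate 2 nearer to the soft libraries.

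**Figure D5:**
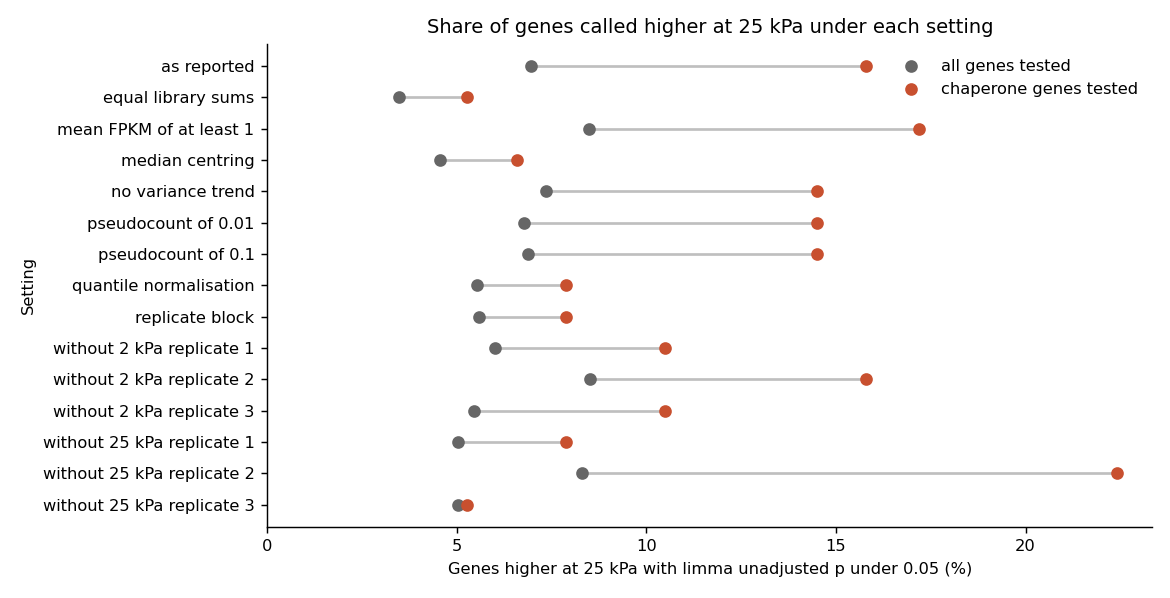
Share of genes, in percent, higher at 25 kPa with a limma unadjusted p under 0.05, for all genes tested (grey) and for the chaperone genes tested (orange), as reported and under 14 other settings. The share of the chaperone genes is 15.8% as reported, 5.26% with equal library sums and 22.4% without 25 kPa replicate 2.

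Genes that work with these chaperones were looked up in 6 lists of 114 genes, 82 of which were in the table, and 0 passed an adjusted p of 0.05 (limma). At an unadjusted p under 0.05, 4 of the 82 were higher (4.88%, against 6.96% of all genes) and 1 was lower (1.22%, against 3.19%) at 25 kPa. Neither share exceeded that of the whole table at this threshold, but several lists did so in higher means and in genes above without overlap, as given below. Among 21 co-chaperones of HSP90 and HSP70, SIL1, the exchange factor of HSPA5, was the lower one, at 1.98, 1.26 and 3.64 FPKM on the soft and 0.57, 0.63 and 0.79 FPKM on the stiff gel. Its groups did not overlap, and the difference was −0.92 ± 0.27 on the log2 scale (limma adjusted p = 0.285). HYOU1, an HSP110 relative of the ER that exchanges nucleotide on HSPA5 as well, had the largest difference upward in that list, with overlap, at 10.6 ± 1.43 and 14.4 ± 3.62 FPKM, and PPID (cyclophilin 40) was higher at 11.3 ± 1.07 and 14.6 ± 0.688 FPKM. Of 12 cyclophilins and parvulins, PPIL4 was higher, at 6.68 ± 0.915 and 9.67 ± 1.07 FPKM. Of 18 ER folding enzymes and lectins, PDIA4 was higher at 13.4 ± 2.07 and 16.9 ± 0.732 FPKM, and the largest difference was that of the collagen chaperone SERPINH1, with 5.21 ± 0.701 and 7.02 ± 0.215 FPKM, no overlap and a limma adjusted p of 0.5. The list of 13 genes of the unfolded protein response had MANF higher, at 107 ± 11.6 and 129 ± 2.21 FPKM, and its largest differences, both with overlap, were 0.30 for SEL1L and −0.29 for the stress sensor ATF6. Of the list of 11 genes with the prefoldin subunits and TCP1, and that of 7 mitochondrial proteases, 0 had an unadjusted p under 0.05. The medians of the 6 lists lay between 0.03 and 0.16. Above without overlap were 4 of the 21 co-chaperones, 3 of the 18 ER enzymes and lectins and 2 of the 12 cyclophilins and parvulins. So were 2 of the 11 prefoldin genes, 1 of the 7 proteases and 1 of the 13 unfolded protein response genes. These shares exceeded the 11.2% of all genes except in the last list (7.69%). Below without overlap were 1 co-chaperone and 1 ER enzyme. Higher means made up 53.8% to 90.9% of a list, against 59.6% of all genes. PPID, PDIA4 and MANF were named after their values had been seen.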

How the data were processed

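RNA sequencing of SW480 cells was analysed from 1 table of 8529 gene symbols and 6 libraries, 3 at each stiffness, grouped by the sample titles. The authors assessed read quality, predicted coding potential and deposited FPKM with 2 decimals. The submitters' processing notes name HISAT, StringTie, Bowtie2, RSEM and hg18, without roles. The authors used DESeq2, which needs counts and was not run on FPKM. FPKM keep no read number, so depth is unknown and precision rests on the spread between libraries. Symbols written as dates (11) entered the tests unnamed.

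Log2(FPKM + 1) was tested over all genes with limma 3.58.1 in R 4.3.3 (lmFit, eBayes with a variance trend, two-sided, Benjamini-Hochberg). No filter on low values was used. An exact permutation test of 3 against 3 cannot go below p = 0.1 and was not used. The fit was tested on simulated data. Python 3.11.15, numpy 2.4.6, pandas 2.3.3 and matplotlib 3.10.9 were used. Exonic overlaps came from GENCODE 29 and promoters from RefSeq on GRCh38.p14, a build other than the one in the notes, and the table gives no positions. Promoters of 11 genes were not matched and are not analysed here.

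The genes and lists were chosen with earlier results of these data known. Genes were named by rule (heat shock factors and FKBP3, calls past the threshold, the 10 largest differences each way without overlap, the 2 highest of each family, textbook targets, and genes whose sequences are printed), and other members to account for the list. Other settings were equal library sums, a filter at a mean FPKM of 1, smaller pseudocounts (0.1 and 0.01), quantile normalisation, median centring, no variance trend, the replicate number as a block, and each library left out.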

Additional observations from a re-analysis of the deposited data

How the results depend on the processing

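The count of the 76 genes past an adjusted p of 0.05 was 0 in every setting (limma). The count higher at an unadjusted p under 0.05, 12 as reported, was 4 with equal library sums, 5 with median centring and 6 with quantile normalisation, and with single libraries left out it ran from 4 to 17. Over all genes the share higher was 5.02% to 8.5% with libraries left out. The count lower, 2 as reported, was 4 with quantile normalisation and ran from 0 (without 25 kPa replicate 1) to 3 with libraries left out. Over all genes the share lower was 3.19% as reported, 5.29% with quantile normalisation and 2.27% to 3.51% with libraries left out. Genes above without overlap, 15 as reported, were 6 with equal library sums and ran from 17 to 27 with libraries left out, where fewer libraries make overlap rarer. Over all genes this share was 11.2% as reported, 5.33% with equal library sums and 14.8% to 21.2% with libraries left out. Genes below without overlap were 2 as reported (2.63%, against 4.78% of all genes). They were 4 with median centring and ran from 3 to 5 with libraries left out, where overlap is again rarer. The share of all genes below without overlap was not counted in these settings, so the rise cannot be read as particular to the 76 genes. The median log2 fold change, 0.14 as reported, was 0.051 with equal library sums, 0.087 with median centring, 0.076 with quantile normalisation, 0.20 with a mean FPKM of at least 1, 0.21 with a pseudocount of 0.1 and 0.22 with one of 0.01, and ran from 0.10 to 0.18 with libraries left out. The median over all genes moved too, from 0.048 as reported to −0.019 with equal library sums, −0.0043 with median centring and 0.0033 with quantile normalisation. It was 0.076 with a mean FPKM of at least 1, 0.084 with a pseudocount of 0.1 and 0.093 with one of 0.01. The cause of these shifts was not tested.

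With the replicate number as a block, 6 of the 76 genes were higher at an unadjusted p under 0.05 (7.89%, against 5.58% of all genes), and over all genes 3 passed the adjusted threshold in place of 10. Deviations from the group means of libraries with the same number correlated with r of 0.115, −0.267 and −0.125 across 8529 genes, which are not independent. Not every library correlated best with its own number. These correlations cannot decide whether the numbers pair the wells, since deviations of 3 libraries from their own mean sum to 0. How the wells were numbered is not given in the sources used here.

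Of 472 values of single named genes under other settings, 449 kept their direction and 23 reversed. No value passed the adjusted threshold in any setting, so its side could not change. The block, the fit without a variance trend and the FPKM filter leave a log2 fold change as it is, so direction could not reverse there. An unadjusted p under 0.05 (limma) held in all 14 other settings for HSF4, FKBP3 and DNAJC9. It held in 5 of 14 for DNAJA1 and HSPA13, and in 3 of 13 for HSP90AA1. With equal library sums, BAG2 was −0.040, CCT3 −0.076 and HSPA8 −0.11 on the log2 scale. Median centring gave CCT3 −0.0043 and HSPA8 −0.035, and quantile normalisation gave CCT3 −0.084 and HSPA8 −0.19. With libraries left out, values crossed 0 for BAG2 (−0.016 to 0.14), BAG6 (−0.33 to 0.17), CCT3 (−0.057 to 0.11), HSPA5 (−0.016 to 0.42), HSPA6 (−0.47 to 0.14), HSPA8 (−0.11 to 0.10), HSPB11 (−0.26 to 0.11), HSPD1 (−0.38 to 0.39), HSPG2 (−0.78 to 0.33) and HSP90AB1 (−0.10 to 0.36), all with adjusted p above 0.05.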
